A study of Homo sapiens with 2 samples.

Results

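hsa-miR-103a-3p and hsa-miR-107, encoded in introns of pantothenate kinase genes, and hsa-miR-26a-5p and hsa-miR-26b-5p, encoded in introns of genes for small CTD phosphatases, were followed in 22Rv1 prostate cancer cells after luteolin. The 4 miRNAs were chosen by name from the 2565 miRNAs on the array, and each has 1 probe. 22Rv1 is an established human prostate carcinoma cell line that expresses the androgen receptor, and luteolin is a plant flavone. One culture was given 25 µM luteolin and the other was untreated, both for 48 h in RPMI1640 medium, and the sources used here do not say whether the untreated culture received solvent. From each, 250 ng of total RNA was labelled with Cy5 and hybridised to 1 Toray 3D-Gene array. With 1 array per condition nothing was replicated and the conditions could not be tested against each other; the number of arrays limits the precision.

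MiRNAs are cut from hairpin transcripts by Drosha and Dicer and guide Argonaute proteins to messenger RNAs, mainly through the seed, bases 2 to 8 of the mature strand. MiR-103 and miR-107 share a seed and lie within the PANK genes, whose enzymes start coenzyme A synthesis. They are known for repressing Dicer itself and, in mouse liver and fat, for acting on caveolin-1 and insulin sensitivity. The miR-26 family lies within the CTDSP genes, whose phosphatases act on RNA polymerase II and the retinoblastoma protein, and it is known for repressing the histone methyltransferase EZH2 in prostate and other cancers.

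The mature sequences show why each pair has to be read together. They are printed 5′ to 3′ from RefSeq (GRCh38.p14), with the seed in capitals.
miR-103a-3p: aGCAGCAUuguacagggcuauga
miR-107: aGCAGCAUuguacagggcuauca
miR-26a-5p: uUCAAGUAauccaggauaggcu
miR-26b-5p: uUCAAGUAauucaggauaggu
Counted from the 5′ end, hsa-miR-103a-3p and hsa-miR-107 share their first 21 bases and differ by the substitution G22C over 23 bases. hsa-miR-26a-5p and hsa-miR-26b-5p share their first 10 bases and, read without gaps over 21 bases, differ by C11U and C21U, and hsa-miR-26a-5p has 1 base more. The probe sequences were not used here, so how far a probe also captures the other miRNA of its pair was not tested. The pair that differs by 1 base near the 3′ end is the more uncertain, since signal shared between its probes cannot be told apart from signal of each miRNA.

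Both hsa-miR-103a-3p and hsa-miR-26a-5p come from a pair of genes, and the array cannot tell the copies apart. The 4 hairpins concerned are shown because their mature strands, in capitals, are identical while the rest differs.
MIR103A1: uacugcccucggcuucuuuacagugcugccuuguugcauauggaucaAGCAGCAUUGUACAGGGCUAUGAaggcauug
MIR103A2: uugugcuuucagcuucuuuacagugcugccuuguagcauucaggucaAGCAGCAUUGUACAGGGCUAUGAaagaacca
MIR26A1: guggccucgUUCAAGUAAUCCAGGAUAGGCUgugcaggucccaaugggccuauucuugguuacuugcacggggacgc
MIR26A2: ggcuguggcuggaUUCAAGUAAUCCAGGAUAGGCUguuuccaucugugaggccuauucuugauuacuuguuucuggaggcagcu
The MIR103A1 hairpin lies on the minus strand at chr5:168560896-168560973 inside PANK3, and the MIR103A2 hairpin on the plus strand at chr20:3917494-3917571 inside PANK2. MIR107 lies on the minus strand at chr10:89592747-89592827 inside PANK1. MIR26A1 lies on the plus strand at chr3:37969404-37969480 inside CTDSPL, MIR26A2 on the minus strand at chr12:57824609-57824692 inside CTDSP2, and MIR26B on the plus strand at chr2:218402646-218402722 inside CTDSP1. The annotation used gave gene bounds without exons, so the intronic position is background knowledge. The host messenger RNAs were not measured.

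The arrays differed in brightness, which sets how the levels can be compared. The blank spots averaged 66.2 units on the luteolin array and 81.0 on the control array, with SDs of 0.591 and 1.48, and the authors listed a miRNA from 2 SD above that mean upwards. Listed were 984 miRNAs on the luteolin array and 811 on the control array, 701 of them on both. The spike-in control spots averaged 3494 units on the luteolin array, against 9266 on the control array. Of the 5 epithelial marker miRNAs, 4 read higher on both arrays than any Negative Control spot, and 0 of the 4 stromal and muscle markers were listed on either. Of the 4 blood and endothelial markers, miR-451a alone read higher on both arrays than those spots. The summed level of those 4 was 22.1 on the luteolin array, from miR-451a alone, and 50.1 on the control array. The control sum holds miR-451a at 39.8 and miR-142-3p at 10.3, and miR-142-3p was not listed on the luteolin array. MiR-451a read 70.9 units on the luteolin array and 94.1 on the control array. These lay just above the highest Negative Control spots, at 69.4 and 93.7.

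All 4 miRNAs were measured well above background on both arrays. hsa-miR-103a-3p gave a raw signal of 212.3 units on the luteolin array and 213.7 on the control array. hsa-miR-107 gave 184.9 units on the luteolin array and 185.1 on the control array. hsa-miR-26a-5p gave 213.3 units on the luteolin array and 197.9 on the control array. The raw signals of these 3 lay close together on the arrays. hsa-miR-26b-5p gave 171.8 units on the luteolin array and 131.3 on the control array. The highest Negative Control spot read 69.4 units on the luteolin array and 93.7 on the control array, below every signal of the 4 miRNAs. Raw signals of hsa-miR-103a-3p and hsa-miR-107 were thus nearly level, and that of hsa-miR-26b-5p was plainly higher on the luteolin array.

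**Figure D1:**
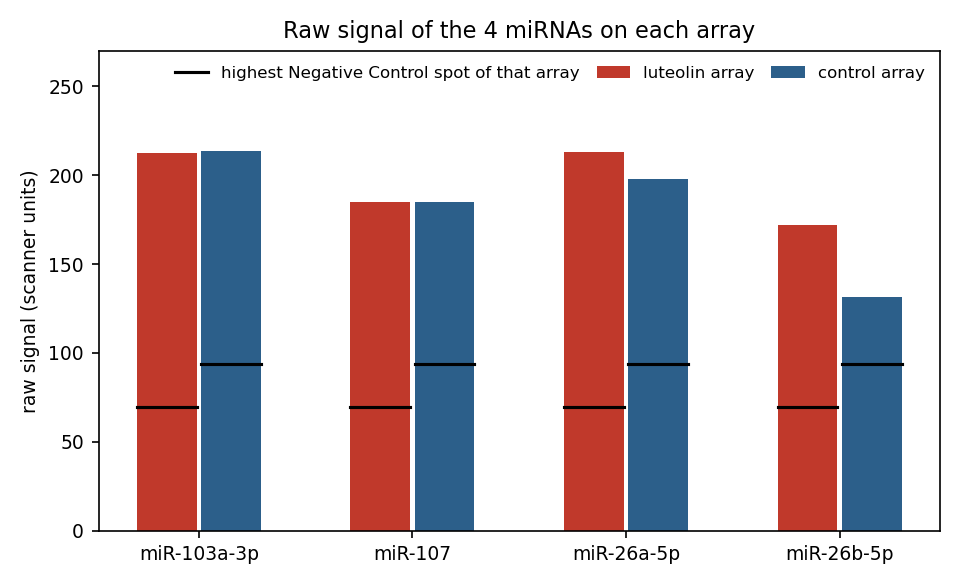
Raw signal in scanner units (vertical axis) of the 4 miRNAs on the luteolin array (red) and the control array (blue), 1 spot each. Black lines mark the highest Negative Control spot, 69.4 units on the luteolin array and 93.7 on the control array, and the largest gap between the arrays is that of hsa-miR-26b-5p, at 171.8 and 131.3 units.

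The comparison asks how these miRNAs differ in level after luteolin. Levels are given on the authors' scale, which subtracts the blank signal and multiplies each array by a constant, so that the median log2 ratio over the 701 miRNAs is 0. Errors of log2 ratios are standard errors (SE) from the spread between repeated control spots within an array, and cover neither culture nor array variation. hsa-miR-26b-5p (MIMAT0000083) had a level of 489 on the luteolin array and 153 on the control array, which is 3.21-fold higher, or 1.68 ± 0.15 (SE) as a log2 ratio. It was the 1 miRNA of the 4 to reach the size rule used here, a log2 ratio of at least 1. hsa-miR-26a-5p (MIMAT0000082) stood at 681 on the luteolin array and 355 on the control array, with a log2 ratio of 0.94 ± 0.14. hsa-miR-107 (MIMAT0000104) stood at 550.0 on the luteolin array and 316 on the control array, with a log2 ratio of 0.80 ± 0.14, and hsa-miR-103a-3p (MIMAT0000101) at 677 and 403, with 0.75 ± 0.14. The 4 miRNAs were therefore all higher on the luteolin array on this scale, by 1.68-fold to 3.21-fold, and their median log2 ratio was 0.87. As total RNA was measured, a changed mix of cells and a changed level of a miRNA per cell cannot be told apart.

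Among all miRNAs listed on both arrays, 94 of 701 (13.4%) reached the size rule upwards and 36 (5.14%) downwards. Among the 310 miRNAs above every Negative Control spot on both arrays, 57 (18.4%) reached it upwards and 2 (0.645%) downwards. hsa-miR-26b-5p ranked 9 by log2 ratio among these 310. hsa-miR-26a-5p had rank 64, hsa-miR-107 rank 72 and hsa-miR-103a-3p rank 74. How many of the 4 passed depended on the factor between the arrays. It was 1 on the authors' scale, 4 with the authors' global normalization alone, beside 20.5% of all 701, 3 with 75th percentile scaling, beside 19.3%, and 4 with spike-in scaling, beside 40.1%. It was 1 with no scaling, beside 3.14%, 1 with quantile normalization without an offset, beside 7.85%, and 0 on the offset scale described below. The authors' further factor of 0.803 for the luteolin array lies between 1 and 4 passing. Its basis is not stated in the labels or headers. With it the median log2 ratio of the 701 was 0, against 0.32 without it.

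The brightest miRNAs had higher log2 ratios than the dimmest on the authors' scale, though not on the offset scale described below. The 4 miRNAs are bright. All 4 were among the 175 miRNAs with the highest mean signal of the 701. In that set the median log2 ratio was 0.32, with the middle 50% between -0.092 and 1.05, and 50 (28.6%) were at least 2-fold higher and 0 (0.0%) lower. In the 176 dimmest miRNAs the median was -0.28. On the offset scale the medians of the bright and the dimmest set were -0.049 and -0.014. That scale gives both arrays the same distribution of signals, and its offset compresses the ratios of dim miRNAs. Its medians therefore cannot tell whether the difference between bright and dim miRNAs is absent. hsa-miR-103a-3p, hsa-miR-107 and hsa-miR-26a-5p lay inside the middle 50% of the bright set, and hsa-miR-26b-5p lay above it.

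**Figure D2:**
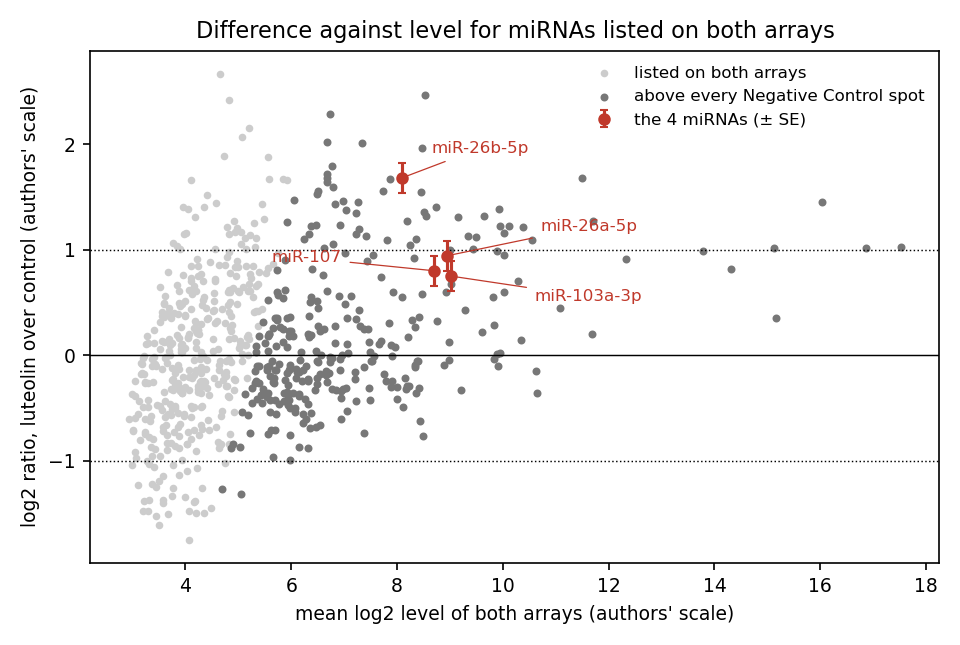
Log2 ratio of luteolin over control (vertical axis) against the mean log2 level of both arrays (horizontal axis), on the authors' scale, for the 701 miRNAs listed on both arrays. Dark points exceed every Negative Control spot, red points are the 4 miRNAs with their SE, and dotted lines mark a 2-fold difference; hsa-miR-26b-5p at 1.68 stands above the other 3, which lie between 0.75 and 0.94.

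The ratio also moved with base content. A RefSeq sequence was found for 270 of the 310 miRNAs above the Negative Control spots, and across these the log2 ratio was lower at a higher GC share, with a Pearson r of -0.46 and a Spearman rho of -0.43; the points share both arrays. The 95 miRNAs of lowest GC share, 31.8% to 54.5%, had a median log2 ratio of 0.59, with the middle 50% between 0.015 and 1.22. The 87 of highest GC share had a median of -0.14. hsa-miR-26b-5p has a GC share of 33.3% and hsa-miR-26a-5p of 40.9%, and hsa-miR-103a-3p and hsa-miR-107 have 47.8% each, so all 4 belong to the low range. Of the brightest miRNAs, 65 had a GC share in that range, with a median log2 ratio of 0.94, and 28 of them (43.1%) were at least 2-fold higher. In this set 58 of 65 had a lower ratio than hsa-miR-26b-5p, 32 a lower one than hsa-miR-26a-5p, 29 than hsa-miR-107 and 27 than hsa-miR-103a-3p. Set against bright miRNAs of low GC share, hsa-miR-26a-5p stood at the middle, hsa-miR-107 and hsa-miR-103a-3p just below it, and hsa-miR-26b-5p near the top. The part of brightness and base content in the ratios was not tested.

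A difference between the log2 ratios of 2 probes does not depend on the constant each array is multiplied by, so the members of a family can be compared without choosing a scale factor. The log2 ratio of hsa-miR-26b-5p exceeded that of hsa-miR-26a-5p by 0.74 ± 0.20 (SE), with a 95% interval of 0.34 to 1.14 from spot error alone. With the larger spread of the repeated S-Probe27 spots, a control of moderate brightness, in place of the pooled spread, the interval was 0.25 to 1.23. Normalizations that are not a single factor gave the same sign, at 0.46 on the offset scale described below and 0.88 with quantile normalization of the blank-subtracted signal. The paralogs of the miR-26 family thus differed in ratio by more than the spot error on this pair of arrays.

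For hsa-miR-107 and hsa-miR-103a-3p the interval of the gap included 0. The log2 ratio of hsa-miR-107 minus that of hsa-miR-103a-3p was 0.05 ± 0.20, with a 95% interval of -0.34 to 0.44. The miR-26 gap exceeded this one by 0.69 ± 0.28, with a 95% interval of 0.13 to 1.24 from spot error alone, but with the spread of the S-Probe27 spots the interval, -0.0019 to 1.38, included 0. The excess was 0.31 on the offset scale. Across families, hsa-miR-26a-5p minus hsa-miR-103a-3p was 0.19 ± 0.20 (-0.20 to 0.58), and hsa-miR-26a-5p minus hsa-miR-107 was 0.14 ± 0.20 (-0.25 to 0.53). hsa-miR-26b-5p exceeded hsa-miR-103a-3p by 0.93 ± 0.20 (0.54 to 1.33) and hsa-miR-107 by 0.88 ± 0.20 (0.48 to 1.28). Of the 6 pairs compared, the 3 with hsa-miR-26b-5p had intervals above 0 and the other 3 had intervals that include 0.

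The size of each difference depended on the scale. The offset scale adds 50 units to the background-corrected signal and then applies quantile normalization, so it differs from the authors' scale in more than 1 step. On it the log2 ratios were 0.69 for hsa-miR-26b-5p, 0.23 for hsa-miR-26a-5p, 0.18 for hsa-miR-107 and 0.028 for hsa-miR-103a-3p, while 1 of 701 miRNAs (0.143%) reached the size rule upwards and 0 (0.0%) downwards. Quantile normalization of the blank-subtracted signal, with no offset, gave 1.21, 0.32, 0.27 and 0.038 for them in the same order. For hsa-miR-26a-5p, hsa-miR-107 and hsa-miR-103a-3p these values are close to those of the offset scale. Scaled on the spike-in spots, the same miRNAs stood at 2.49, 1.75, 1.61 and 1.56, but the median of all 701 moved to 0.81 as well. With no scaling between arrays they stood at 1.07, 0.33, 0.19 and 0.14, where the median of all was -0.61. Under every scaling by a factor the median of the 4 stood 0.87 above the median of all 701, with quantile normalization without an offset it stood 0.38 above it, and on the offset scale 0.22 above it. All 4 log2 ratios were above 0 under each scaling tried, but that of hsa-miR-103a-3p was as low as 0.028, and no error was computed for the offset scale.

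**Figure D3:**
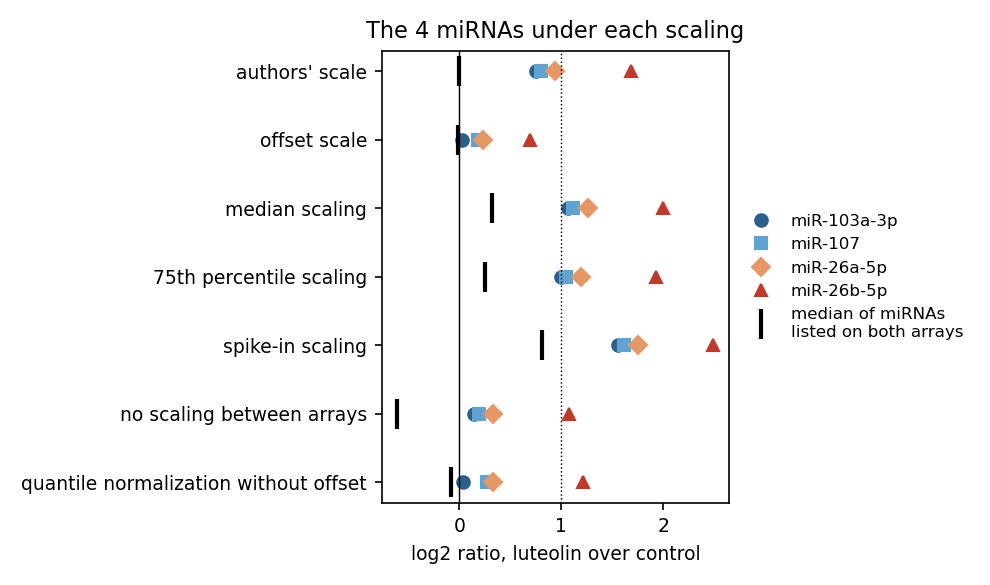
Log2 ratio of luteolin over control (horizontal axis) of the 4 miRNAs under each scaling (rows), with the median of the 701 miRNAs listed on both arrays as a black bar. The dotted line marks a 2-fold difference; hsa-miR-26b-5p is the highest of the 4 in each row, from 0.69 on the offset scale to 2.49 with spike-in scaling.

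The opposite arms of the same hairpins gave little or no signal. MiR-26a-1-3p, miR-26a-2-3p and miR-103a-2-5p were not listed on either array, and no array miRNA was found under the name miR-103a-1-5p. MiR-26b-3p was listed at 12.7 on the luteolin array and 15.3 on the control array, but its raw signals of 68.9 and 86.0 units lay below the highest Negative Control spot of each array, so no ratio is given. The 3p arms of MIR26A1 and MIR26A2 differ in sequence and could have told those genes apart, yet neither was above the detection limit. MiR-103b is the exact reverse complement of hsa-miR-103a-3p, from the other strand of the same loci, and was not listed on either array, at 66.1 units on the luteolin array and 81.0 on the control array.

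Relatives that share the miR-26 seed gave little or no signal as well. They are printed with the seed in capitals because miR-1297 repeats the first 15 bases of hsa-miR-26b-5p.
miR-1297: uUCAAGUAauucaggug
miR-4465: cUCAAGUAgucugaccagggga
MiR-1297 was not listed on either array, at 65.5 units on the luteolin array and 82.4 on the control array. MiR-4465 was listed at 22.3 on the luteolin array and 37.4 on the control array, with raw signals of 71.0 and 93.3 units. The first lay just above and the second just below the highest Negative Control spot of its array. Of the 4 array miRNAs with the miR-26 seed, hsa-miR-26a-5p and hsa-miR-26b-5p were thus the 2 above every such spot on both arrays. For the miR-103 and miR-107 seed, the 2 members were the only array miRNAs with a RefSeq sequence that matched it.

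The miR-15 and miR-16 family, known for holding down cell cycle genes, carries as its seed the 7 bases that open hsa-miR-103a-3p and hsa-miR-107, shifted by 1 base.
miR-15a-5p: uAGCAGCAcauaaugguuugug
miR-16-5p: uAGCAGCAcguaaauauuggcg
Of 8 relatives considered with this or a closely related seed, 5 were above every Negative Control spot on both arrays, and their median log2 ratio was 1.10 on the authors' scale, against 0.039 over all 310 such miRNAs. MiR-15a-5p stood at 1.44 ± 0.17, miR-16-5p at 1.22 ± 0.14, miR-497-5p at 1.10 ± 0.19, miR-195-5p at 0.95 ± 0.15 and miR-15b-5p at 0.34 ± 0.15. Of these 5, 3 were at least 2-fold higher, beside a background of 18.4%. All 5 have a GC share in the low range, from 40.9% to 52.4%, and all but miR-497-5p are among the 175 brightest. In the set of 65 bright miRNAs of low GC share the median was 0.94 and 43.1% were at least 2-fold higher, closer to the values of the relatives. MiR-15b-5p stood lowest of the 5, and its gene and MIR16-2, a source of miR-16-5p, both lie within SMC4. On the offset scale it was below 0, at -0.049.

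Other miRNAs encoded within protein-coding genes did not share one direction. A list of 49 such miRNAs, made from general knowledge of their hosts, had 30 listed on both arrays, with a median log2 ratio of 0.53. Of these 30, 6 (20%) were at least 2-fold higher, beside 13.4% of all 701, and 1 was lower. Above every Negative Control spot were 12, of which 1 (8.33%) was at least 2-fold higher, beside 18.4% of the 310, and 1 lower. Their median was 0.35, against 0.87 for the 4 miRNAs and 0.039 over all 310. The highest were miR-106b-5p at 1.31 ± 0.14 and miR-25-3p at 0.92 ± 0.14, both from the MCM7 gene, miR-191-5p of DALRD3 at 0.59 ± 0.14, and miR-93-5p, again of MCM7, at 0.55 ± 0.14. The 3 miRNAs of MCM7 named here also spread from 0.55 to 1.31. The lowest were miR-149-5p of GPC1 at -1.32 ± 0.26, miR-744-5p of MAP2K4 at -0.88 ± 0.26, and miR-423-3p and miR-423-5p of NSRP1 at -0.69 ± 0.16 and -0.43 ± 0.20. The sign depended on the scale for several of these: miR-93-5p and miR-191-5p stood at -0.10 and -0.018 on the offset scale, and miR-423-3p and miR-423-5p at 0.12 and 0.38 with spike-in scaling. The median of the 12 was -0.034 on the offset scale, -0.080 with quantile normalization without an offset and -0.26 with no scaling between arrays, while that of the 5 shifted-seed relatives was 0.28, 0.62 and 0.49. MiR-15b-5p, of SMC4, is counted in both the 12 and the 5. Of the 12, the 4 highest have a GC share in the low range described above, and the 4 lowest have a share above it. On the luteolin array miR-149-5p and miR-744-5p read 70.7 and 71.3 units, just above the highest Negative Control spot at 69.4. The 12 were not set against miRNAs of similar brightness and GC share, so the part of these in their ratios was not tested.

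**Figure D4:**
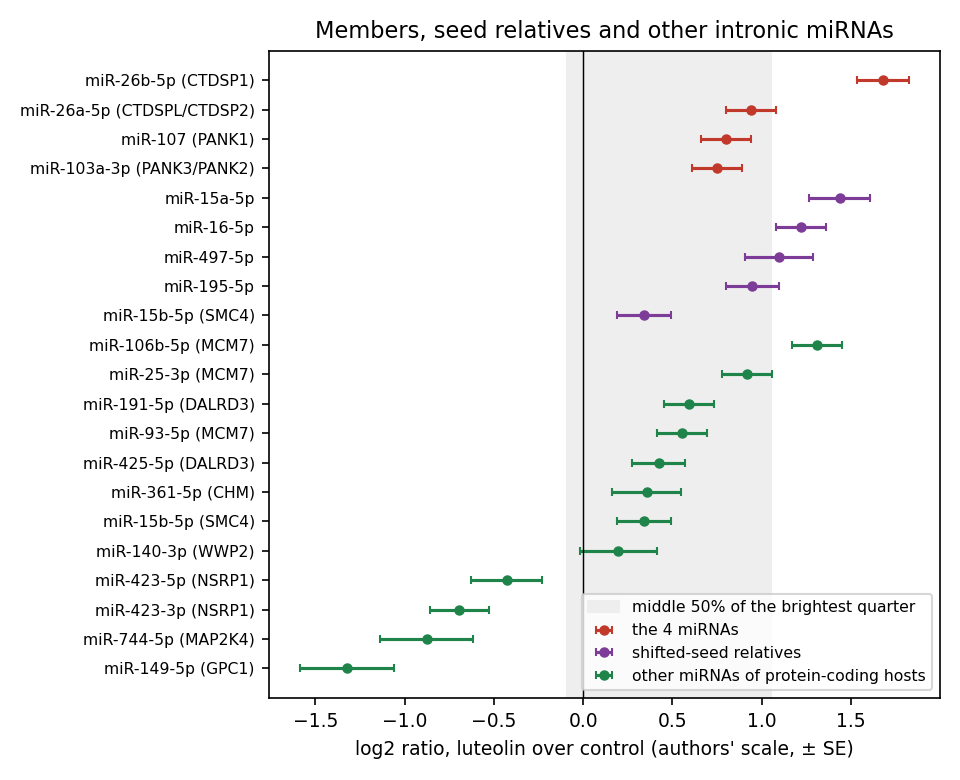
Log2 ratio of luteolin over control on the authors' scale with its SE (horizontal axis) for the 4 miRNAs, the relatives with a shifted seed and other miRNAs of protein-coding hosts (host gene in brackets), all above every Negative Control spot on both arrays. The grey band is the middle 50% of the 175 brightest miRNAs, -0.092 to 1.05; hsa-miR-26b-5p lies above it and miR-149-5p, at -1.32, lies farthest below.

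The miRNAs with log2 ratios nearest to those of the 4 were sought among the 310 above the Negative Control spots, with the 4 left out. Beyond the 4, none of the array miRNAs matched to either seed was above those spots on both arrays. That the nearest came from other families was therefore fixed by the choice and is not a result. Nearest to hsa-miR-26b-5p were miR-6872-3p at 1.68 ± 0.18 and miR-4723-5p at 1.68 ± 0.14, and nearest to hsa-miR-26a-5p were miR-195-5p at 0.95 ± 0.15 and miR-17-5p at 0.95 ± 0.14. For hsa-miR-107 they were miR-4319 at 0.81 ± 0.22 and miR-1260b at 0.82 ± 0.14, and for hsa-miR-103a-3p miR-4634 at 0.74 ± 0.15 and miR-6516-3p at 0.76 ± 0.17. With a pair of arrays, such likeness means only a similar ratio.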

How the data were processed

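The authors deposited scanner intensity on a linear scale for 3200 spots per array, as raw data, background subtraction and global normalization, with a further adjusted column for the luteolin array, per the file headers. Worked out from the values, a blank mean trimmed by 5% at each end was subtracted, listed miRNAs were scaled to a median of 25 (factors 5.77 for luteolin, 3.03 for control), and the luteolin array was multiplied by a further 0.803. The authors' scale uses the adjusted luteolin and globally normalized control values. It was set as the main one because adding an offset of 50 compresses ratios of signals near background. The 4 miRNAs are brighter, but an offset of this size can compress their ratios too. hsa-miR-26b-5p had a blank-subtracted signal of 50.3 units on the control array, close to the offset. Its log2 ratio was 1.21 with quantile normalization without an offset and 0.69 on the offset scale, which differ in more than the offset.

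The SE combined the blank SD with the pooled spread of 5 bright repeated control probes (6.23% on the luteolin array, 7.34% on the control array), and 95% intervals were 1.96 SE. The offset scale used normexp and quantile normalization in limma 3.58.1 (R 4.3.3). Other work used Python 3.11.15, numpy 2.4.6, pandas 2.3.3 and matplotlib 3.10.9, and the calculation was tested on simulated data. RefSeq held mature sequences for 2253 of the 2565 miRNAs.

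The 4 miRNAs and all lists were chosen with earlier results of these data known. Named miRNAs were the 4, their other arms and seed relatives, the 4 highest and 4 lowest of each other list above the Negative Control spots (all 5 of the shifted-seed list), and the 2 nearest ratios per miRNA. Marker miRNAs were named besides. The brightness and GC sets, the S-Probe27 error and the comparison of the family gaps were chosen after the values were seen.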

Additional observations from a re-analysis of the deposited data

How the results depend on the processing

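The log2 ratios of miR-103a-3p, miR-107, miR-26a-5p and miR-26b-5p, in that order and with their median last, were 0.028, 0.18, 0.23, 0.69 and 0.20 on the offset scale, 1.07, 1.12, 1.26, 1.998 and 1.19 with the authors' global normalization alone (median scaling), 1.56, 1.61, 1.75, 2.49 and 1.68 with spike-in scaling, 0.14, 0.19, 0.33, 1.07 and 0.26 with no scaling between arrays, and 0.038, 0.27, 0.32, 1.21 and 0.30 with quantile normalization without an offset. The number of the 4 at least 2-fold higher was 1 on the authors' scale, 0 on the offset scale, 4 with median scaling, 3 with 75th percentile scaling and 4 with spike-in scaling. Over all miRNAs listed on both arrays, the numbers at least 2-fold higher and lower were 94 and 36 on the authors' scale, 1 and 0 on the offset scale, 144 and 19 with median scaling, 135 and 22 with 75th percentile scaling, 281 and 0 with spike-in scaling, 22 and 165 with no scaling and 55 and 29 with quantile normalization, and 57 and 2 above every Negative Control spot on the authors' scale. Higher calls were 72.3% of all calls on the authors' scale, 88.3% with median scaling, 86.0% with 75th percentile scaling, 11.8% with no scaling and 65.5% with quantile normalization. Without a detection filter on the offset scale, the medians of the other intronic miRNAs and of the shifted-seed relatives were 0.045 and 0.19. The series' value table gave the values of the authors' scale. No ratio of the 4 changed sign. Scaling by a factor shifts all ratios equally by construction; for the offset scale and quantile normalization the cause was not tested. No paired analysis was possible because each condition has 1 array.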
